A study of Arabidopsis thaliana with 30 samples.

Results

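The GASA family of Arabidopsis thaliana codes for small secreted peptides, named after the gibberellin-stimulated transcript GAST1 of tomato. The 9 members described here are GASA1 (AT1G75750), GASA4 (AT5G15230), GASA5 (AT3G02885), GASA6 (AT1G74670), GASA7 (AT2G14900), GASA9 (AT1G22690), GASA10 (AT5G59845), GASA11 (AT2G18420) and GASA14 (AT5G14920). They were taken by gene identifier from 37686 genes in the expression tables, by a rule that sets no threshold on their values. Of the 9, 8 reached 1 TPM in at least 2 libraries and were tested among 20654 genes. GASA11 did not, since it was listed at 0 in 29 libraries and at 0.21 TPM in the remaining 1. The RNA came from the wounded region of leaf blades cut from wild-type Col-0 seedlings aged 12 d, raised at 22 °C under a day of 16 h light and 8 h dark. Blades were laid on B5 medium free of sucrose in 24 h light, where adventitious roots can form beside the cut. The groups were blades on medium with NPA, an inhibitor of polar auxin transport whose dose the labels do not give, blades on medium without it (mock), and blades at detachment (T0). NPA and mock were each sampled at 7 times, which were 6 h, 12 h and 24 h on the first day and then each day from 2 d to 5 d. Each of the 15 groups had 2 libraries, 30 in all, and no group carried a transgene or mutation. The sources used here do not say whether libraries of a group came from separate plants, so the spread behind each p-value may be technical.

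Gibberellin promotes growth by binding GID1 receptors, which then hand DELLA repressor proteins to an F-box protein for degradation. GASA transcripts are among the genes that respond to this hormone, some rising and some falling with it, and other hormones act on several of them. The peptides carry an N-terminal signal for secretion and a C-terminal GASA domain whose conserved cysteines form disulfide bonds. In Arabidopsis, GASA4 has been linked to branching, seed size and redox activity, GASA5 to flowering time and heat tolerance, GASA6 to seed germination and cell elongation, and GASA14 to leaf growth. No such role is stated here for the other members.

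The coding ends of 4 members are shown, GASA5, GASA7 and GASA10, which were called between NPA and mock at single times, and GASA6, whose level fell furthest below T0, because they carry the family's defining feature. Each run is the spliced coding strand of the last 62 codons before the stop codon, read from RefSeq's TAIR10.1 assembly, with the cysteine codons TGT and TGC in capitals. GASA5 lies at chr3:637921-639242 on the minus strand. GASA6 lies at chr1:28053030-28054149, GASA7 at chr2:6404131-6405352 and GASA10 at chr5:24111304-24112100, all on the plus strand. In GASA7 the stretch lies in a single exon, and in the other 3 it spans 1 intron.
GASA5: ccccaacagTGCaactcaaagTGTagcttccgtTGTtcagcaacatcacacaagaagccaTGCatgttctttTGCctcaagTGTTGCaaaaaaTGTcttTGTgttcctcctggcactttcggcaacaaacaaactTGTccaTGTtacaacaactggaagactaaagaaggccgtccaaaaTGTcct
GASA6: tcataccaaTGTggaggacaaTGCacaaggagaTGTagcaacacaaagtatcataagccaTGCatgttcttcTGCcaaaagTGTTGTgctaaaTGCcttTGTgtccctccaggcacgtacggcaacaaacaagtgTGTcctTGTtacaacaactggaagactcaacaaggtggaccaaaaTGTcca
GASA7: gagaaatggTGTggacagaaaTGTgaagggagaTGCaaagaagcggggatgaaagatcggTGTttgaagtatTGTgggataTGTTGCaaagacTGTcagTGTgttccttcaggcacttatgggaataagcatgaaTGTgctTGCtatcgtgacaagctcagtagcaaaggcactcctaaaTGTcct
GASA10: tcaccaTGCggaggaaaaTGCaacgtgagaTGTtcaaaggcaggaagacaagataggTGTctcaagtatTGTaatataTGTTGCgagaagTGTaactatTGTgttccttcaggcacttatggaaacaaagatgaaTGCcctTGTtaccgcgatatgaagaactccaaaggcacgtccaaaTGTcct
All 9 members held 12 cysteine codons in this stretch. The coding sequences had 89 codons in GASA10, 94 in GASA11, 97 in GASA5, 98 in GASA1, 101 in GASA6, 106 in GASA4, 108 in GASA7 and 119 in GASA9. GASA14 stood apart with 275 codons, of which 81 (29.5%) coded for proline, against 4.08% to 7.92% in the others. Over the stretch, GASA1 and GASA11 shared 79% of aligned bases, GASA5 and GASA6 73.4%, GASA4 and GASA6 70.8%, and GASA7 and GASA10 69.9%. The least alike pair was GASA1 and GASA6, at 47.8%. No 50-base stretch of any member's exons occurred elsewhere in the assembly. GASA6 overlaps AT1G74675 on the opposite strand by 206 bases, and that gene's level was 0 to 0.79 TPM. GASA9 overlaps AT1G22700 on the opposite strand by 11 bases, and that gene's level was 72.49 to 131.07 TPM. The sources used here do not say whether counting used strand, so reads in these overlaps cannot be assigned.

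The values are TPM, a relative abundance within a library that is corrected for transcript length, so levels can be compared between genes. The depth behind each value is unknown, and between 17201 and 19288 genes reached 1 TPM in a library. Differences below are differences of mean log2(TPM + 1) ± SE from limma, fitted to all 30 libraries, with p-values adjusted by the Benjamini-Hochberg method over the 20654 genes. This scale understates the change of genes near 0 TPM. A difference is called where its adjusted p is under 0.05. Where both NPA libraries are said to lie below or above both mock libraries, the share of all genes that do so was not computed. Because the tissue is whole, fewer cells of a type and less RNA per cell cannot be told apart. Leaf markers were high throughout, with RBCS1A of the Rubisco small subunit at 13582.51 to 27197.16 TPM, and the seed, flower and shoot meristem markers did not reach the level for testing.

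The T0 libraries stood apart from each other, which bears on each comparison with T0. Their Pearson r across genes was 0.888, against 0.964 to 0.988 for the other pairs. CCA1, a clock gene expressed in the morning, stood at 318.01 TPM in T0 replicate 1 and 0.13 TPM in replicate 2. TOC1, expressed in the evening, stood at 2.25 TPM in T0 replicate 1 and 84.31 TPM in replicate 2. Over 2-fold differences of TPM + 1 within the T0 pair were found in 8 of 10 clock genes and in 4 of 8 tested GASA members. They were also found in 3 of 5 mesophyll, 1 of 3 epidermis and 1 of 3 guard cell markers. Of the tested gibberellin genes, 2 of 6 for synthesis, 2 of 4 for inactivation and 4 of 12 for signalling differed so. The phloem, xylem and root primordium markers had 0 of 3 each, and the share of all genes was not computed. GASA1 stood at 353.39 and 15.91 TPM in T0 replicates 1 and 2, and GASA9 at 522.18 and 238.14 TPM. GASA14 stood at 9.0 and 168.24 TPM, and GASA4 at 140.21 and 783.54 TPM. Thus GASA1 and GASA9 were higher in replicate 1, and GASA14 and GASA4 in replicate 2, by 22.21-fold, 2.193-fold, 18.69-fold and 5.588-fold. GASA6, GASA7 and GASA10 differed by 1.352-fold to 1.614-fold within the pair, and GASA5 was listed at 0 in both. Clock genes also differed within pairs at 12 h: NPA libraries held 8.45 and 135.73 TPM of CCA1, and mock libraries 114.17 and 14.42 TPM. The part of the clock genes in any GASA difference was not tested.

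**Figure D1:**
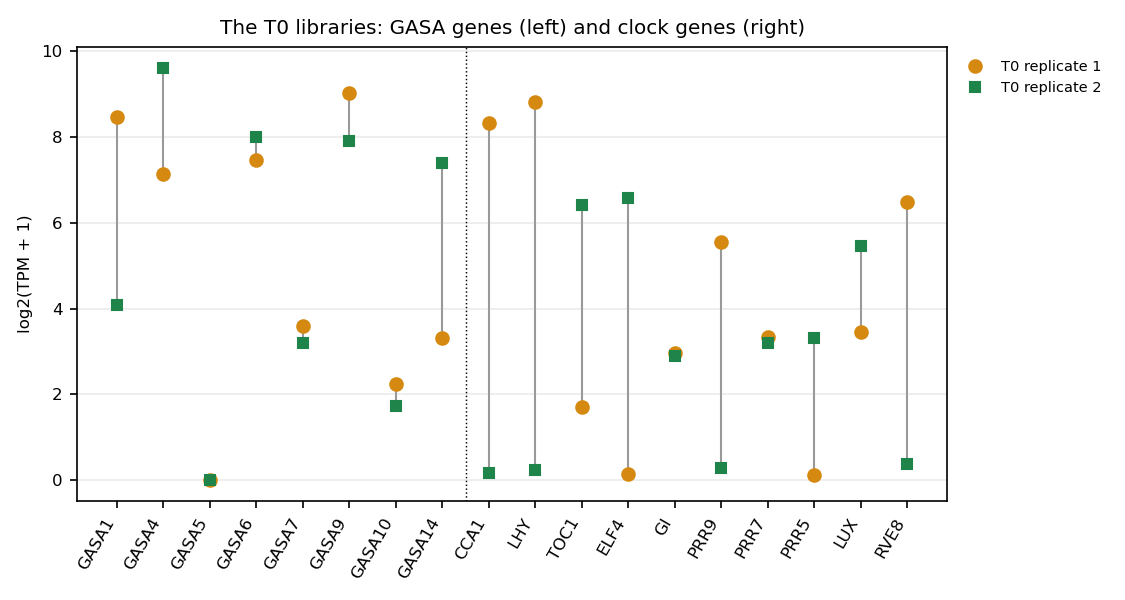
Levels of the 8 tested GASA genes (left of the dotted line) and 10 circadian clock genes (right) in the T0 libraries, as log2(TPM + 1), with a circle for replicate 1, a square for replicate 2 and a line joining them. GASA1, GASA4, GASA9 and GASA14 are over 2-fold apart, as are 8 of the 10 clock genes.

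The 250 bases before the annotated gene start of GASA1 and GASA14, the members furthest apart within the T0 pair, each hold the letters AATATCT, the core of the evening element of clock-regulated promoters, on either strand. The windows are chr1:28442436-28442685 for GASA1, read on the minus strand, and chr5:4825891-4826140 for GASA14, read on the plus strand, with each match in capitals.
GASA1: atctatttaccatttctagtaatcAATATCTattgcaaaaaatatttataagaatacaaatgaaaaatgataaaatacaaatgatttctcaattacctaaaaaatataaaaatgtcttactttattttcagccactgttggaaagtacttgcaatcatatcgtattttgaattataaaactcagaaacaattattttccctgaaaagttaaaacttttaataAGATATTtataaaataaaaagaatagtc
GASA14: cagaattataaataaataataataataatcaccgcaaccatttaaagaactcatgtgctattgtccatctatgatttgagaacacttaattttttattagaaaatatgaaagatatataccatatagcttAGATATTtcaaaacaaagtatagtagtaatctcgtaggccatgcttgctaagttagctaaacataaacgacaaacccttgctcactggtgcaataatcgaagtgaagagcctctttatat
GASA1 held a match on each strand, at positions -226 and -28 from the gene start, and GASA14 held 1 match at -120. Over windows that add the first 50 bases of the gene, 4 of 9 members held this motif (GASA1, GASA5, GASA9 and GASA14), as did 11.5% of 27443 windows of all genes. The gibberellin response element TAACAAA was found in 2 of 9 members (GASA9 and GASA11) and in 18.4% of all windows. The auxin response element TGTCTC was found in 3 of 9 (GASA5, GASA9 and GASA11) and in 14.2% of all windows. CATGCA, the RY core, and TATCCA, a box often near gibberellin elements, were each found in GASA9 alone among the members and in 9.72% and 16.1% of all windows. The G-box CACGTG was in no member's window and in 7.68% of all windows. GASA4, 5.588-fold apart within the T0 pair, held no AATATCT match, while GASA5, at 0 in both T0 libraries, held one. Any link between this motif and the T0 levels was not tested. All motifs were searched on both strands, and a match is a description of the letters only.

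Summed over the 9 members, GASA transcripts were highest at detachment. The sum was 423.4 and 408.8 TPM in mock libraries at 6 h, against 1214 and 1472 TPM at T0. In mock it was 213.9 and 327.9 TPM at 12 h, 302.1 and 410.8 at 24 h, 567.8 and 417.3 at 2 d, 888.1 and 886.6 at 3 d, and 767.1 and 755.6 at 4 d. No mock library at these times or at 5 d reached either T0 library. At 5 d the sum was 639.3 and 790.8 TPM with NPA, against 643.8 and 755.4 TPM in mock, and the groups overlapped. GASA9 had the highest mean level in all groups except T0 and the 24 h groups, where GASA4 had it. The libraries of the highest and the next member overlapped in mock at 24 h and 2 d and in NPA at 12 h and 2 d, so their order is not set there. At T0 the ranges of GASA4, GASA9, GASA6, GASA1 and GASA14 each overlapped that of the next in order, and so their order is not set. In NPA at 5 d the order of mean levels was GASA9, GASA1, GASA14, GASA4, GASA6, GASA7, GASA5 and GASA10, with no overlap between neighbours. In mock at 5 d it was GASA9, GASA4, GASA1, GASA14, GASA5, GASA6, GASA7 and GASA10, and the ranges of GASA4 and GASA1, of GASA5 and GASA6, and of GASA6 and GASA7 overlapped. GASA5 made up 0.03077% of the GASA sum with NPA at 5 d and 4.258% in mock at 5 d.

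**Figure D2:**
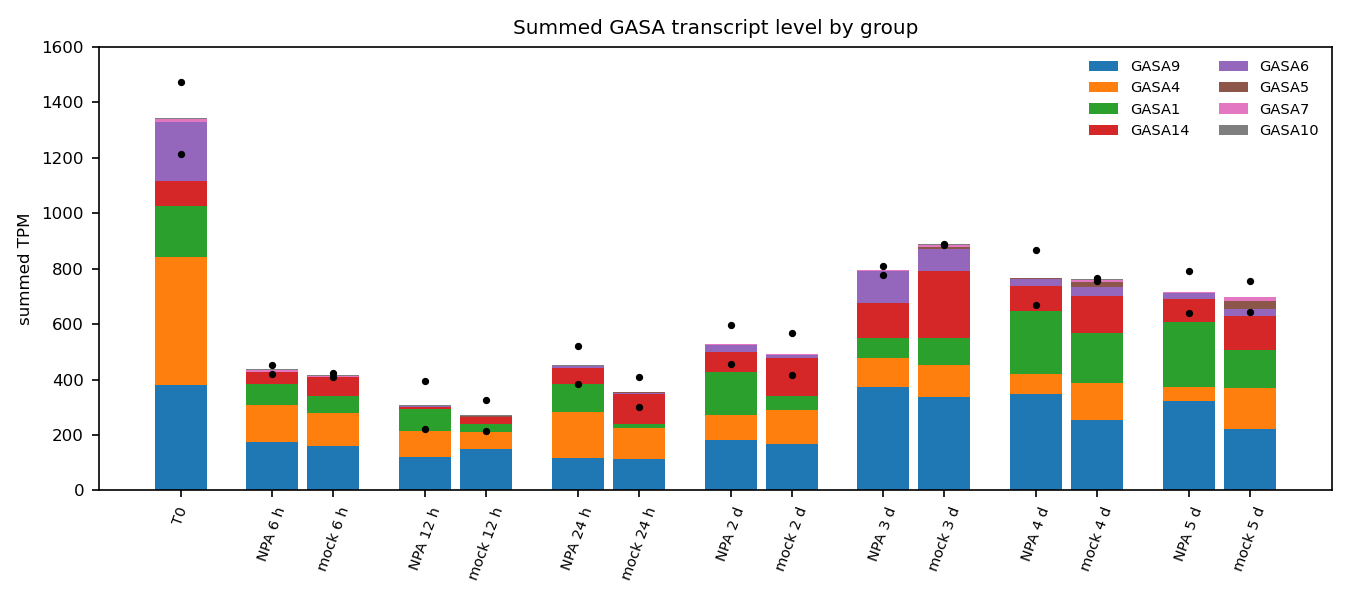
Mean TPM of each tested GASA gene stacked by group, with NPA left of mock at each time and T0 at the left, and black dots for the sum in each library. Both T0 libraries lie above all others, and the sums of NPA and mock libraries overlap at 5 d.

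GASA5 stayed low with NPA and rose late in mock blades. With NPA GASA5 stood at 0.83 and 0.99 TPM at 6 h, 1.19 and 0.48 at 12 h, 0.95 and 1.06 at 24 h, 0.63 and 0.15 at 2 d, 0.22 and 0.46 at 3 d, 0.36 and 0.15 at 4 d, and 0.2 and 0.24 at 5 d. In mock it stood at 1.08 and 0.47 TPM at 6 h, 1.39 and 3.72 at 12 h, 2.68 and 2.22 at 24 h, 1.85 and 1.38 at 2 d, 6.5 and 4.19 at 3 d, 20.43 and 15.99 at 4 d, and 20.88 and 38.7 at 5 d. Both NPA libraries lay below both mock libraries at 6 of the 7 times, all but 6 h. The difference between NPA and mock was -2.22 ± 0.31 at 3 d (adjusted p = 0.000161), -3.93 ± 0.31 at 4 d (adjusted p = 1.3e-07) and -4.59 ± 0.31 at 5 d (adjusted p = 6.91e-09). In mean TPM, GASA5 at 5 d was 135-fold lower with NPA. At 12 h, 24 h and 2 d the differences of -0.90, -0.78 and -0.93 did not pass (adjusted p = 0.171, 0.311 and 0.14). Within NPA the difference of 5 d against 6 h was -0.65 ± 0.31 and was not called (adjusted p = 0.114). Within mock, the level at 5 d exceeded that at 6 h by 4.08 ± 0.31 (adjusted p = 1.67e-08), and the step between 3 d and 4 d was called (1.61, adjusted p = 0.00929). That step was no longer called without mock 3 d replicate 2 (adjusted p = 0.146) or mock 4 d replicate 1 (adjusted p = 0.124). GASA5 was listed at 0 in both T0 libraries, so no fold against T0 is given. Its level in mock was called higher than at T0 at each time between 12 h and 5 d.

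GASA7 fell early and came back late, and its return was smaller with NPA than in mock. With NPA it stood at 5.02 and 4.31 TPM at 6 h, 0.86 and 1.44 at 12 h, 0.65 and 0.85 at 24 h, 1.26 and 1.46 at 2 d, 1.43 and 2.67 at 3 d, 1.69 and 2.69 at 4 d, and 2.49 and 3.16 at 5 d. In mock it stood at 4.02 and 4.4 TPM at 6 h, 1.83 and 0.82 at 12 h, 0.58 and 0.7 at 24 h, 2.11 and 2.16 at 2 d, 9.34 and 11.03 at 3 d, 10.65 and 5.89 at 4 d, and 8.34 and 19.97 at 5 d, with 11.02 and 8.15 TPM at T0. From 2 d to 5 d both NPA libraries lay below both mock libraries, while up to 24 h the groups overlapped. The difference between NPA and mock was -1.90 ± 0.32 at 3 d (adjusted p = 0.000961), -1.51 ± 0.32 at 4 d (adjusted p = 0.00364) and -1.88 ± 0.32 at 5 d (adjusted p = 0.000372). The 4 d call was lost without mock 4 d replicate 1 (adjusted p = 0.106) and without NPA 4 d replicate 1 (adjusted p = 0.0696). Against T0, GASA7 in mock was lower at 6 h (-1.01 ± 0.32, adjusted p = 0.0232), 12 h (-2.21), 24 h (-2.68 ± 0.32, adjusted p = 6.67e-06) and 2 d (-1.74). Leaving out T0 replicate 1 ended the 6 h call (adjusted p = 0.136), as did leaving out mock 6 h replicate 1 or replicate 2 (adjusted p = 0.11 and 0.0636). In mean TPM the level at 24 h in mock was 15-fold lower than at T0. The drop between 6 h and 12 h (-1.20, adjusted p = 0.028) and the rise between 2 d and 3 d (1.83, adjusted p = 0.00538) were called as single steps in mock. The first lost its call without mock 6 h replicate 1, mock 6 h replicate 2 or mock 12 h replicate 2 (adjusted p = 0.132, 0.0957 and 0.208) and under median-ratio scaling (adjusted p = 0.0553) and quantile normalization (adjusted p = 0.0544). The second lost it without mock 2 d replicate 1, mock 2 d replicate 2 or mock 3 d replicate 2 (adjusted p = 0.0533, 0.0556 and 0.0693).

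GASA10, the member with the lowest tested levels, was also lower with NPA at 5 d. In NPA libraries it stood at 4.35 and 2.74 TPM at 6 h, 3.07 and 2.54 at 12 h, 1.94 and 1.25 at 24 h, 0.49 and 0.43 at 2 d, 0.47 and 0.18 at 3 d, 0.48 and 0.29 at 4 d, and 0.14 and 0.16 at 5 d. Mock libraries held 1.67 and 2.89 TPM at 6 h, 2.16 and 1.96 at 12 h, 1.59 and 2.43 at 24 h, 0.23 and 0.56 at 2 d, 0.68 and 0.35 at 3 d, 1.81 and 0.97 at 4 d, and 2.39 and 2.93 at 5 d, with 3.76 and 2.33 TPM at T0. Mean levels in mock thus dipped at 2 d and 3 d and came back. Both NPA libraries lay below both mock libraries at 4 d and 5 d, and above them at 12 h. The differences between NPA and mock at 6 h and 12 h, 0.47 and 0.31, were not called (adjusted p = 0.852 and 0.74). With all libraries no single mock step of GASA10 was called. The adjusted p was 0.0619 from 24 h to 2 d, 0.197 from 3 d to 4 d and 0.681 from 4 d to 5 d. The difference between NPA and mock was -0.77 at 4 d, which did not pass with all libraries (adjusted p = 0.0564) but did when both T0 libraries were left out (adjusted p = 0.0375), and -1.67 ± 0.24 at 5 d (adjusted p = 7.25e-05). Within NPA, 5 d was below 6 h by -1.96 ± 0.24 (adjusted p = 9.59e-06). Within mock that difference was 0.18 ± 0.24 (adjusted p = 0.602). Against T0, GASA10 in mock was lower at 2 d (-1.52), 3 d (-1.40) and 4 d (-0.76, adjusted p = 0.0161), and the 2 d and 3 d calls remained with each T0 library left out in turn, while leaving out T0 replicate 1 or mock 4 d replicate 2 ended that at 4 d (adjusted p = 0.178 and 0.183).

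**Figure D3:**
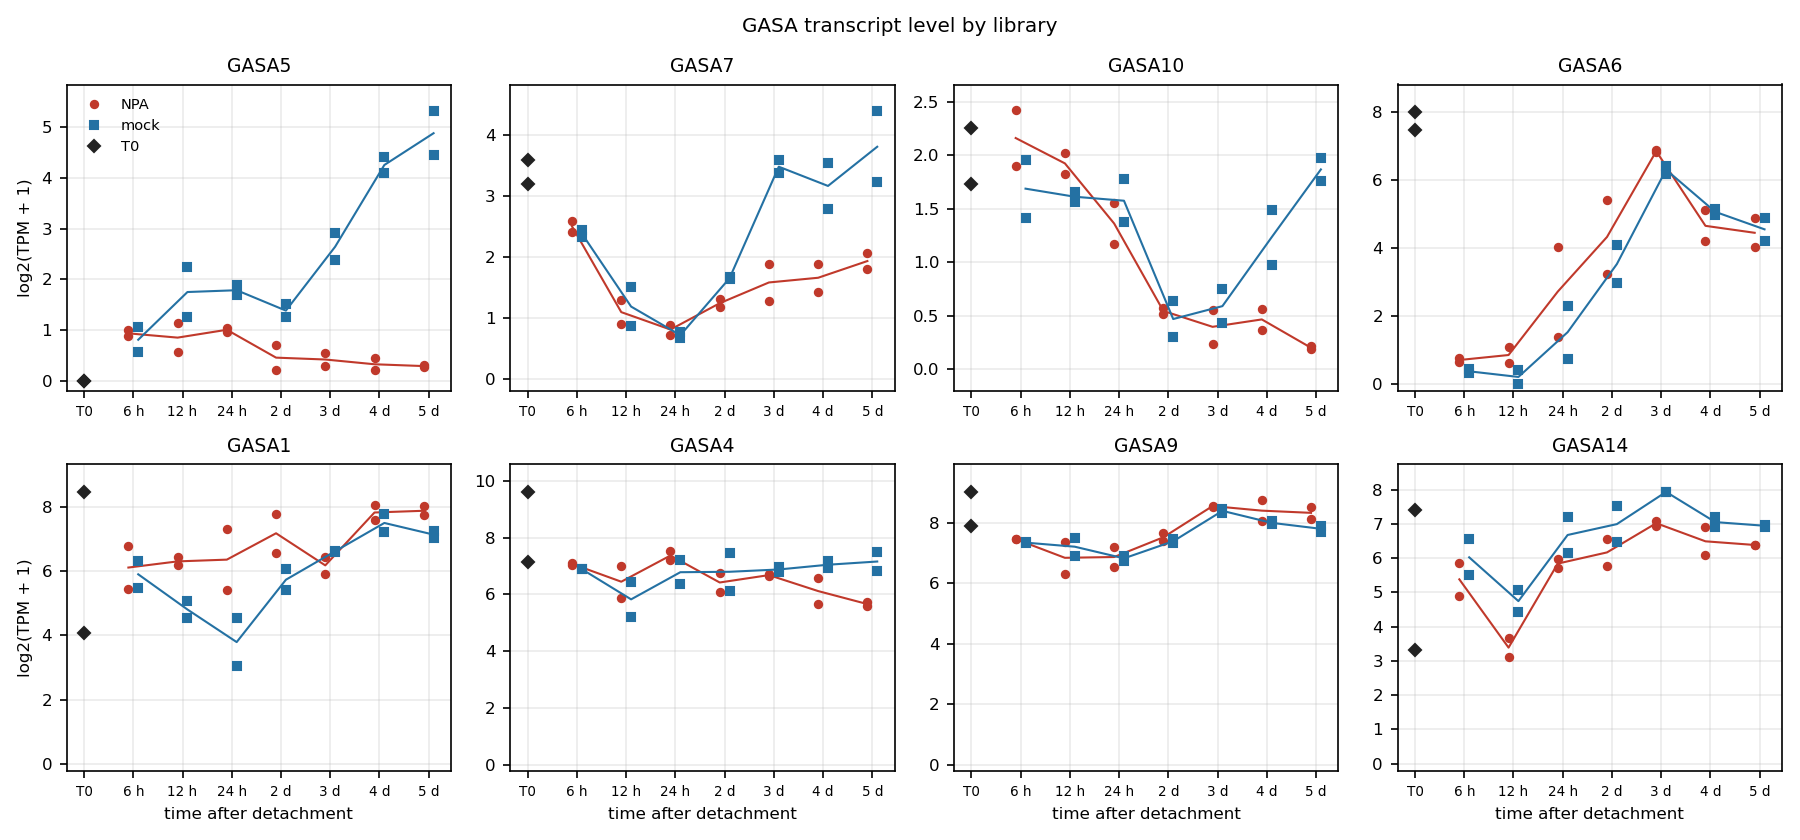
Level of each tested GASA gene by time as log2(TPM + 1), with a circle for each NPA library, a square for each mock library, a diamond for each T0 library and lines through the means of the log2 values. GASA5, GASA7 and GASA10 part between NPA and mock at the late times, while GASA6 and GASA9 run close together.

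Over all members and times, 7 of 56 differences between NPA and mock were called, all lower with NPA, beside 6.00% of gene and time pairs over all genes in either direction. They were the 3 late times of GASA5 and of GASA7 and the 5 d time of GASA10. When both T0 libraries were left out, an alternative chosen after the data were seen, 10 were called, 9 lower and 1 higher, the added ones being GASA10 at 4 d, GASA4 at 5 d and, higher with NPA, GASA1 at 24 h. The share of all genes called without the T0 libraries was not computed. With all libraries, 3 of 8 tested members were lower at 5 d, beside 15.1% of all genes. At 3 d and 4 d 2 of 8 were lower, beside 5.14% and 9.30%. The median of the 8 differences at 5 d was -1.03, and that of all tested genes -0.11. The differences between NPA and mock varied over time in GASA5 (adjusted p = 3.03e-06), GASA7 (adjusted p = 0.00649) and GASA10 (adjusted p = 0.00449) by the moderated F test, beside 5.86% of all genes. The signed change from 6 h to 5 d with NPA, minus that in mock, was -4.72 ± 0.44 in GASA5 (adjusted p = 1.08e-06), -2.00 ± 0.46 in GASA7 (adjusted p = 0.009) and -2.14 ± 0.35 in GASA10 (adjusted p = 0.000431). These 3 of 8 stood beside 6.42% of all genes that were called lower in this contrast. The GASA7 call was lost without mock 5 d replicate 2 (adjusted p = 0.0694).

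Averaged over the 7 times, 4 of 8 members were lower with NPA and 0 higher, beside 30.6% and 6.60% of all genes. The mean difference was -1.89 ± 0.12 in GASA5 (adjusted p = 1.29e-09), -0.80 ± 0.12 in GASA7 (adjusted p = 5.71e-05), -0.28 ± 0.09 in GASA10 (adjusted p = 0.0226) and -0.81 ± 0.31 in GASA14 (adjusted p = 0.0469). The GASA10 call was lost under median-ratio scaling (adjusted p = 0.0927) and quantile normalization (adjusted p = 0.37). The GASA14 call was lost in 22 of 30 fits that left out 1 library. Median-ratio scaling also ended the GASA14 call (adjusted p = 0.0738). With both T0 libraries left out, the alternative chosen after the data were seen, the GASA14 difference was -0.81 ± 0.17 and was called (adjusted p = 0.000827). GASA1 averaged 0.91 ± 0.36 higher and did not pass (adjusted p = 0.0557), GASA6 averaged 0.43 ± 0.28 (adjusted p = 0.247), GASA9 0.14 ± 0.13 (adjusted p = 0.42) and GASA4 -0.23 ± 0.23 (adjusted p = 0.489).

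**Figure D4:**
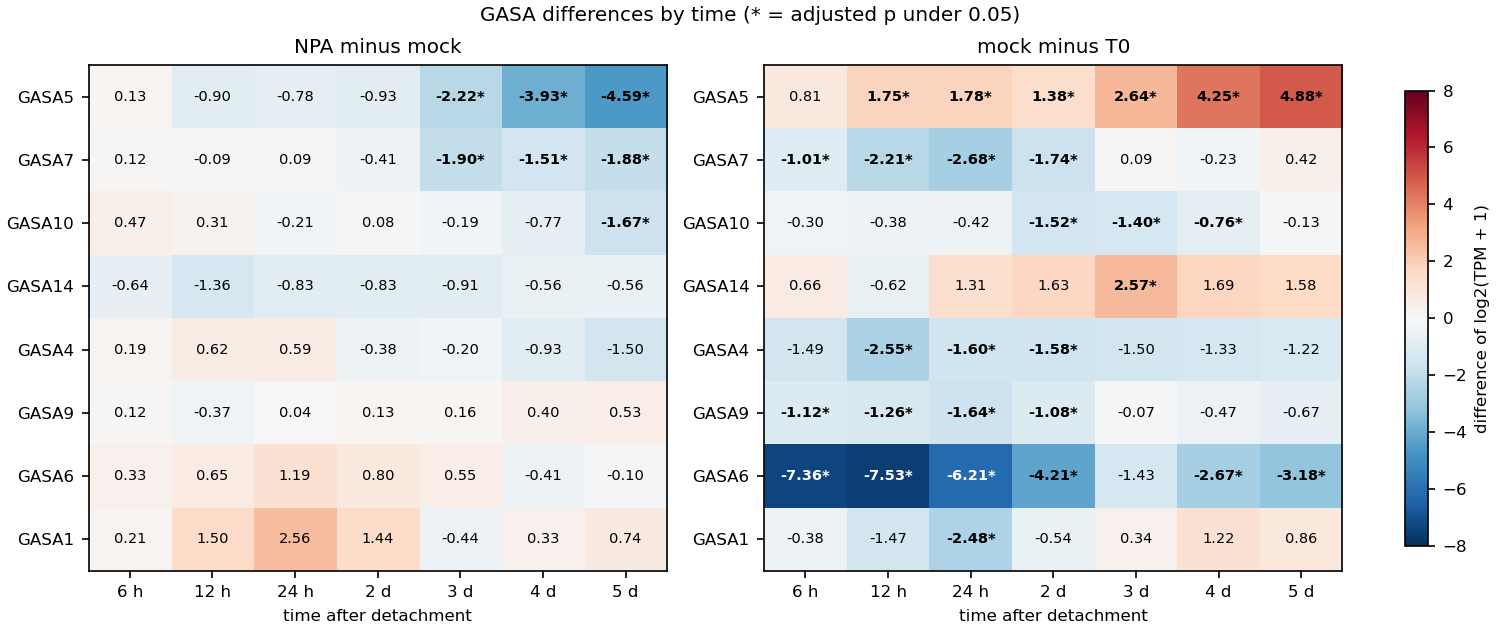
Differences of mean log2(TPM + 1) by time for the 8 tested GASA genes, NPA minus mock at the left and mock minus T0 at the right, with blue for lower, red for higher and a star for an adjusted p under 0.05. The starred cells at the left belong to GASA5, GASA7 and GASA10 at the late times, and GASA6 holds the lowest values at the right.

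Markers of root primordia and xylem were also lower with NPA at the late times, and some were called before any GASA member. The root primordium list (WOX11, WOX5, PLT3 and PLT1) summed to 1.83 and 1.7 TPM with NPA at 5 d, against 22.4 and 28.68 TPM in mock at 5 d. WOX11, a homeobox gene of root founder cells, was at 0 in both NPA libraries at 5 d and at 6.84 and 5.49 TPM in the mock libraries, and PLT1 was also at 0 with NPA. PLT3, an AP2 factor of root meristems, stood at 1.43 and 1.32 TPM with NPA and 14.02 and 19.72 TPM in mock. All 3 tested members of that list were called lower at 5 d. The xylem list (IRX3, XCP1 and VND7) summed to 1.6 and 5.11 TPM with NPA and 35.55 and 46.15 TPM in mock at 5 d, with 3 of 3 called lower. At 3 d the root primordium sums were 2.93 and 3.01 TPM with NPA and 14.34 and 13.86 TPM in mock. At 2 d they were 2.6 and 2.43 TPM with NPA and 11.19 and 7.92 TPM in mock. The xylem sums at 2 d were 2.68 and 2.19 TPM with NPA and 12.38 and 16.28 TPM in mock. At that time 2 of 3 tested root primordium and 3 of 3 xylem markers were called lower, beside 0 of 8 tested GASA members. At 12 h and at 24 h 1 of 3 root primordium markers was called lower. The shares of all genes called at these earlier times are not given here. Of the 5 leaf mesophyll markers 0 were called between NPA and mock at 5 d, where they summed to 22310 and 23830 TPM with NPA and 19740 and 20190 TPM in mock. Of the 3 epidermis and the 3 phloem markers, 1 each was called lower at 5 d, and of the 3 guard cell markers 0. Over all genes 15.1% were called lower with NPA at 5 d. The part of these cell types in the GASA differences was not tested.

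**Figure D5:**
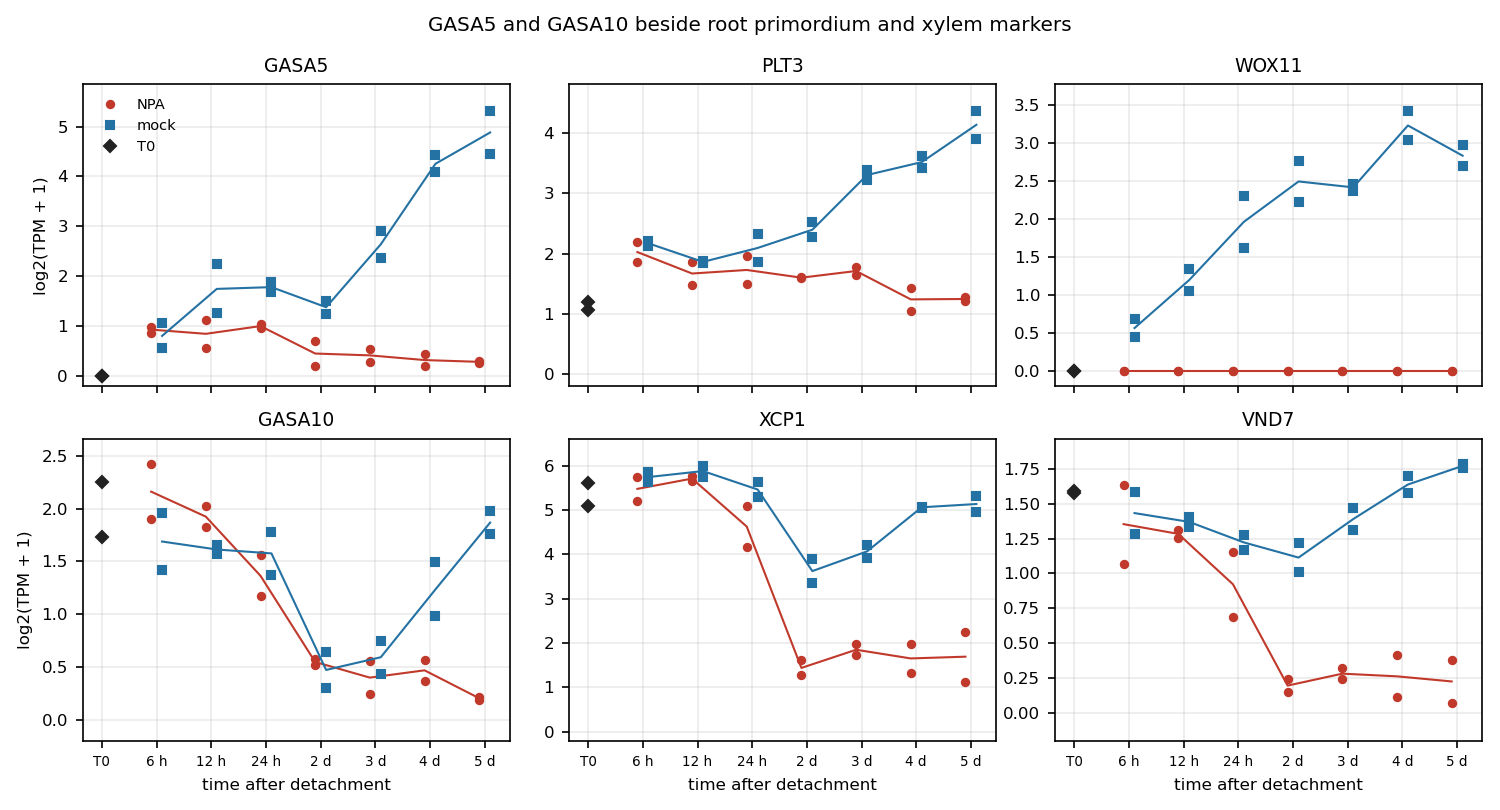
Levels by time as log2(TPM + 1) of GASA5 and GASA10 beside PLT3 and WOX11 of root primordia and XCP1 and VND7 of xylem, with circles for NPA, squares for mock and diamonds for T0 libraries and lines through the means. At 4 d and 5 d the NPA libraries lie below the mock libraries in all 6 panels, and WOX11 is at 0 in the NPA and T0 libraries plotted.

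GASA6 showed the deepest loss after detachment among the members. In mock it stood at 0.35 and 0.24 TPM at 6 h, 0 and 0.33 at 12 h, 3.94 and 0.67 at 24 h, 6.8 and 15.99 at 2 d, 71.88 and 84.07 at 3 d, 34.23 and 30.61 at 4 d, and 17.59 and 28.37 at 5 d, with 174.72 and 255.91 TPM at T0. All mock libraries thus lay below both T0 libraries, with a peak of the mock course at 3 d. The difference between mock and T0 was -7.36 ± 0.73 at 6 h (adjusted p = 1.01e-06), -7.53 at 12 h, -6.21 at 24 h and -4.21 at 2 d. It was -1.43 at 3 d, which was not called (adjusted p = 0.113), then -2.67 at 4 d (adjusted p = 0.00585) and -3.18 at 5 d (adjusted p = 0.00137). The 6 calls remained with each T0 library left out in turn. In mean TPM the level in mock at 6 h was 730-fold lower than at T0, at 2 d 18.9-fold and at 5 d 9.37-fold. From 6 h to 5 d it rose in both arms, by 3.74 ± 0.73 with NPA (adjusted p = 0.000673) and by 4.17 ± 0.73 in mock (adjusted p = 0.000208). Cell type markers moved over the same comparisons with T0. Of the 3 epidermis markers 2 were called lower at 6 h and 3 at 5 d, and they summed to 129.4 and 182.1 TPM in mock at 6 h and 81.17 and 95.62 TPM at 5 d, against 214.7 and 238.7 TPM at T0. Of the 5 mesophyll markers 1 was called lower at 6 h and 2 at 5 d, with sums of 22610 and 29070 TPM in mock at 6 h, against 52920 and 34960 TPM at T0. Of the 3 tested root primordium markers 2 were called higher at 6 h and 3 at 5 d. Of the 3 xylem markers 0 were called at either time, and of the 3 phloem markers 1 was called lower at 6 h and 0 at 5 d. Of the 3 guard cell markers 1 was called higher at 6 h and 1 lower at 5 d. Over all genes 6.22% were called lower and 26.5% higher at 6 h, and 10.9% and 42.4% at 5 d. The part of these cell types in the differences of the GASA members from T0 was not tested. With NPA GASA6 stood at 110.99 and 116.94 TPM at 3 d, above both mock libraries at that time, but no single time was called between NPA and mock.

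GASA9 and GASA4 were abundant, with mean levels below that of T0 early on. GASA9 in mock ranged over 105.35 to 180.75 TPM between 6 h and 24 h, with a median of 139.8, and over 159.35 to 352.44 TPM between 2 d and 5 d. Against T0 it was lower at 6 h (-1.12, adjusted p = 0.0186), 12 h (-1.26, adjusted p = 0.0118), 24 h (-1.64, adjusted p = 0.00112) and 2 d (-1.08, adjusted p = 0.0178). Leaving out T0 replicate 1 ended the calls at 6 h, 12 h and 2 d, with differences of -0.56, -0.69 and -0.51, but not that at 24 h. The 6 h and 2 d calls were also lost when either mock library of that time was left out. That at 12 h was also lost without mock 12 h replicate 1. With NPA, GASA9 stood at 280.76 and 365.88 TPM at 5 d, against 206.21 and 238.91 TPM in mock, a difference of 0.53 that was not called. GASA4 in mock ranged over 36.31 to 177.87 TPM over all times. It was called lower than T0 at 12 h (-2.55, adjusted p = 0.00552), 24 h (-1.60, adjusted p = 0.0479) and 2 d (-1.58, adjusted p = 0.049), but not at 6 h (-1.49, adjusted p = 0.0748). Mock libraries at 145.92 TPM (24 h) and 174.76 TPM (2 d) lay above T0 replicate 1, at 140.21 TPM. Leaving out T0 replicate 2 ended each call, with differences of -1.32, -0.36 and -0.35. The 12 h call was also lost without mock 12 h replicate 1 (-1.95). Those at 24 h and 2 d were lost in most fits that left out 1 library and with a replicate block (adjusted p = 0.0525 and 0.0537). With NPA, GASA4 stood at 47.28 and 51.92 TPM at 5 d, below 112.91 and 177.87 TPM in mock. That difference of -1.50 was not called with all libraries (adjusted p = 0.112) and was called when both T0 libraries were left out (adjusted p = 0.0296).

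GASA1 and GASA14, which lay furthest apart within the T0 pair, gave no call against T0 that remained with each T0 library left out in turn. With NPA GASA1 stood at 108.01 and 42.7 TPM at 6 h, 85.03 and 71.2 at 12 h, 41.13 and 157.97 at 24 h, 218.98 and 93.82 at 2 d, 59.1 and 86.02 at 3 d, 265.34 and 190.66 at 4 d, and 211.11 and 258.09 at 5 d. GASA1 in mock stood at 43.32 and 79.33 TPM at 6 h, 32.38 and 22.42 at 12 h, 22.37 and 7.22 at 24 h, 41.12 and 65.91 at 2 d, 95.69 and 98.38 at 3 d, 148.9 and 215.93 at 4 d, and 151.06 and 128.38 at 5 d. Against T0 mock was called lower at 24 h (-2.48 ± 0.95, adjusted p = 0.0438), a difference of -0.29 without T0 replicate 1 (adjusted p = 0.817). Both NPA libraries lay above both mock libraries at 4 times (12 h, 24 h, 2 d and 5 d) and below them at 3 d. The difference between NPA and mock at 24 h was 2.56, which was not called with all libraries (adjusted p = 0.26) but was when both T0 libraries were left out (2.56 ± 0.60, adjusted p = 0.0265). The mean over times was then also called (0.91 ± 0.23, adjusted p = 0.00366). The clock gene CCA1 in the same 24 h libraries was at 2.34 and 10.5 TPM with NPA and at 12.09 and 2.07 TPM in mock.

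GASA14, the proline-rich member, was lower with NPA at most times. With NPA it stood at 28.78 and 57.4 TPM at 6 h, 11.62 and 7.7 at 12 h, 61.37 and 51.75 at 24 h, 93.14 and 53.94 at 2 d, 122.37 and 135.68 at 3 d, 66.97 and 118.16 at 4 d, and 82.15 and 83.02 at 5 d. In mock it stood at 92.52 and 44.32 TPM at 6 h, 20.4 and 32.68 at 12 h, 70.08 and 146.25 at 24 h, 181.56 and 87.99 at 2 d, 241.78 and 245.33 at 3 d, 144.9 and 119.82 at 4 d, and 124.44 and 120.22 at 5 d. Both NPA libraries lay below both mock libraries at 5 of the 7 times, all but 6 h and 2 d, and no single time was called. By the same count NPA lay above mock at 4 times in GASA9 and 3 in GASA6, and in GASA4 above at 2 and below at 3. In mock its level at 3 d was called higher than T0 (2.57 ± 0.82, adjusted p = 0.0151), a difference of 0.53 without T0 replicate 1 (adjusted p = 0.472).

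Over the 7 times, 28 of 56 differences between mock and T0 were called (7 higher and 21 lower), beside 41.7% of gene and time pairs over all genes. With each T0 library left out in turn, a check chosen after the data were seen, 18 remained in the same direction in both fits (6 higher and 12 lower). The higher ones were those of GASA5, and the lower ones were 6 of GASA6, 3 of GASA7, 2 of GASA10 and 1 of GASA9. The share of all genes that remain in both fits was not computed. With all libraries, 3 of 8 members were lower at 6 h and 0 higher, beside 6.22% and 26.5% of all genes. At 12 h 4 were lower and 1 higher, beside 7.53% and 17.0%. At 24 h 5 were lower and 1 higher, beside 8.98% and 32.5%, and at 2 d again 5 and 1, beside 8.94% and 33.4%. At 3 d 1 was lower and 2 higher, beside 9.35% and 39.9%. At 4 d 2 were lower and 1 higher, beside 8.74% and 39.8%, and at 5 d 1 was lower and 1 higher, beside 10.9% and 42.4%. The median difference of the members was -0.69 at 6 h, -1.62 at 24 h and 0.15 at 5 d, and that of all tested genes was 0.21, 0.26 and 0.37. From 6 h to 5 d, 3 of 8 members rose in mock (GASA5, GASA6 and GASA7), beside 25.5% of all genes, and the GASA7 call was lost without mock 5 d replicate 2 (0.84, adjusted p = 0.0594). With NPA over the same span GASA6 rose and GASA10 fell, beside 19.0% of all genes higher and 19.1% lower. Of 48 successive steps in mock 3 were called, beside 4.74% over all genes.

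Gibberellin genes called higher in mock at 5 d than at T0 were 1 of 6 tested synthesis genes, 1 of 4 inactivation genes and 5 of 12 signalling genes. Of 14 synthesis genes 6 were tested. KO, the ent-kaurene oxidase gene, was higher in mock at 5 d than at T0 (1.76 ± 0.15, adjusted p = 3.64e-08), at 32.33 and 29.51 TPM in mock and 7.59 and 9.28 TPM at T0. GA3OX1, of the last activating step, and KAO2, an ent-kaurenoic acid oxidase gene, differed by -1.31 ± 0.56 and -0.39 ± 0.22 and did not pass (adjusted p = 0.0559 and 0.14). Of 9 inactivation genes 4 were tested, and only GA2OX4, a gibberellin 2-oxidase gene, was called at 5 d. It was at 0 in both NPA libraries at 5 d, at 2.45 and 2.49 TPM in mock and at 0 in both T0 libraries. Of 12 signalling genes, all tested, 5 were higher and 1 lower in mock at 5 d than at T0. They included the receptor gene GID1B (2.75 ± 0.29, adjusted p = 3.88e-07), the F-box gene SLY1 (1.32 ± 0.09, adjusted p = 2.12e-09) and its relative SNE (1.29 ± 0.20, adjusted p = 4.22e-05). The background at 5 d was 42.4% of all genes higher and 10.9% lower. At 6 h the signalling list had 5 genes called higher and 1 lower, beside 26.5% and 6.22% of all genes, and 0 of the 6 synthesis genes were called. The most calls were at 2 d, with 6 signalling genes higher and 2 lower, beside 33.4% and 8.94%.

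Averaged over times, 1 of 6 synthesis genes, 1 of 4 inactivation genes and 3 of 12 signalling genes were lower with NPA, and 1 signalling gene was higher, beside 30.6% of all genes lower and 6.60% higher. KO differed by -0.22 ± 0.06 (adjusted p = 0.00506) and GA2OX4 by -0.49 ± 0.05 (adjusted p = 4.61e-07). SLY1 differed by -0.30 ± 0.03 (adjusted p = 2.21e-06), SNE by -0.23 ± 0.08 (adjusted p = 0.023) and SPY, a negative regulator of the pathway, by -0.18 ± 0.05 (adjusted p = 0.00773). RGL3, a DELLA gene, was higher with NPA (0.41 ± 0.12, adjusted p = 0.0113). KS, of an early synthesis step, differed by -0.45 ± 0.19 and did not pass (adjusted p = 0.0781). The change of GA2OX4 from 6 h to 5 d differed between the arms (-2.24 ± 0.19, adjusted p = 2.56e-07).

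Of 6 other genes of the family, GASA3 and GASA13 were tested. GASA2, GASA8 and GASA12 were listed at 0 in all 30 libraries, and GASA15 reached 0.11 TPM in 1 library. GASA13 was highest early and far apart within pairs, at 60.13 and 7.65 TPM with NPA at 12 h and 4.25 and 24.11 TPM in mock at 12 h. It was lower in mock at 5 d, at 1.69 and 1.41 TPM, than at T0, at 14.76 and 23.78 TPM (-2.96 ± 1.09, adjusted p = 0.0304). GASA3 stood at 5.61 and 3.54 TPM in mock at 5 d and at 0 in both T0 libraries (2.45 ± 0.82, adjusted p = 0.0178). Neither was called for the mean NPA difference.

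The members did not share a single course. Pearson r of mean log2(TPM + 1) over the 15 groups ran from -0.58 (GASA10 and GASA14) to 0.84 (GASA6 and GASA9) over the 28 pairs of tested members. GASA5 and GASA7 had an r of 0.52, and 0.70 with T0 left out. Among 6390 genes with a symbol and a mean of at least 10 TPM in some group, those most like GASA5 over the 15 groups were APX5 (r = 0.968), XTH10 (0.965) and UGT71D1 (0.962). GASA7 was most like FAF4 (0.884), QKY (0.882) and ROD1 (0.874), and GASA10 most like GLP10 (0.918), LAC11 (0.915) and DMP2 (0.899). GASA6 was most like LUP1 (0.904), GRH1 (0.891) and ZCF37 (0.889). For GASA14 they were HB5 (0.977), bZIP52 (0.949) and CPK21 (0.948), and for GASA9 BTS (0.926), ORG1 (0.89) and PYE (0.887). GASA1 was most like BCA3 (0.842), HOL1 (0.819) and MT1C (0.793), and GASA4 most like TIFY8 (0.865), GRP2 (0.855) and ARR7 (0.845). These values share the same libraries and are descriptions.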

How the data were processed

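RNA-seq values of 30 libraries were taken as TPM, as deposited by the authors in 2 tables, 1 for mock and 1 for NPA, whose T0 columns were identical and used once. Per the submitters' processing notes, reads went through Trim Galore (0.5.0), the aligner STAR (2.7.2b) and the quantifier RSEM (1.3.2), with TAIR10 as the build. The sources used here do not give parameters or strand. Groups came from the sample titles. The deposited TPM hold no counts, so depth is unknown and no counting interval is given. None of 435 library pairs was identical.

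Genes with at least 1 TPM in at least 2 libraries were kept. Values were taken as log2(TPM + 1) and fitted with limma 3.58.1 in R 4.3.3 (a mean per group, trend, 15 residual and 2.33 prior degrees of freedom), with two-sided moderated tests and Benjamini-Hochberg adjustment over all genes in a comparison. The fit was tested on simulated data. Comparisons were mock against T0, NPA against mock, the mean NPA difference, its variation over times, 5 d against 6 h in each arm, their difference, and the mock steps. Alternatives changed the pseudocount, filter, scaling, model and libraries, 1 at a time.

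All 9 members matched the annotation by locus. RefSeq symbols cover GASA1, GASA4, GASA5 and GASA6, with GASA14 as a synonym, and the numbers of GASA7, GASA9, GASA10 and GASA11 came with the list of members, not from the annotation, so their locus identifiers are the firm names. Sequences and coordinates are from RefSeq's TAIR10.1. A planned comparison of proteins was made on the coding sequence, since no protein table was used here. Members and lists were chosen with earlier results of these data known. Named by rule were all members, up to 3 genes per list with the smallest p in mock at 5 d against T0 and in the mean NPA difference, and the 3 genes most like each member. SNE in the NPA mean and the clock and cell type markers were named outside this rule, after their values were seen.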

Additional observations from a re-analysis of the deposited data

Results flagged for a closer look

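In 3 members the difference between NPA and mock was not the same at all times, by tests of that difference itself (limma, Benjamini-Hochberg over all genes). GASA5 gave an adjusted p of 3.03e-06 for variation over the 7 times and 1.08e-06 for the change from 6 h to 5 d, NPA against mock. GASA7 gave adjusted p values of 0.00649 and 0.009 for the same tests, and GASA10 gave 0.00449 and 0.000431. The background was 5.86% of all genes for the first test and 6.42%, called lower, for the second. Root primordium and xylem markers were lower with NPA than in mock at the late times. Calls among them were already made at 2 d, where 0 of 8 tested GASA members were called. The part of these markers in the GASA differences was not tested.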

How the results depend on the processing

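Of 2328 recomputed values of 57 single differences, 2150 kept their direction and their side of the threshold, 167 lost a call, 11 gained one and 0 changed direction. A mean TPM of at least 5 left 5 members to test, without GASA5, GASA7 and GASA10, and the calls were then 15 against 28 for mock against T0, 0 against 7 for NPA against mock, 1 against 4 for the NPA mean, 0 against 3 for variation over times, 1 against 3 for 5 d against 6 h in mock, 1 against 2 in NPA, 0 against 3 for the course difference and 0 against 3 for the mock steps. Fitting the compared libraries alone gave 9 calls for mock against T0 and 5 for 5 d against 6 h in NPA, with fewer samples. A minimum log2 difference of 1 gave 1 call for the NPA mean. Added after the data were seen, 18 calls against T0 remained in the same direction with each T0 library left out in turn, and leaving out both T0 libraries gave 10 calls for NPA against mock, 5 for the NPA mean, 5 for 5 d against 6 h in NPA and 6 for the mock steps. With each library left out in turn the calls were 24 to 37 for mock against T0, 6 to 10 for NPA against mock, 3 to 5 for the NPA mean, 3 in each case for variation over times, 2 to 3 for 5 d against 6 h in mock, 2 to 5 in NPA, 2 to 3 for the course difference and 1 to 6 for the mock steps. A group left with 1 library is assumed to vary like the others. The share of all genes called was not computed for these alternatives. For NPA against mock, the calls of GASA5 at 3 d, 4 d and 5 d were kept in all 41 alternatives run. So were those of GASA7 at 3 d and of GASA10 at 5 d, while GASA7 kept its 4 d and 5 d calls in 38 and 40. Replicate deviations of same-numbered mock and NPA libraries had r of -0.58 to 0.33 over the 7 times, so the numbers do not pair them. At 6 h, 12 h and 24 h r was -0.57, -0.58 and -0.36, so libraries of opposite number deviated alike there. A pairing of opposite numbers was not fitted, and any batch shared that way is ignored in the tests. A replicate block by number gave 26, 7, 3, 3, 3, 2, 3 and 3 calls in the order above. The causes of these changes were not tested. Unknown depth limits the members near 0 TPM.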
